A study of Homo sapiens with 31 samples.

Results

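The genes described here encode 10 membrane proteins that carry peptides and amino acids through intestinal epithelial cells, or that the carriers need as partners, measured in the human intestinal cell line Caco-2. They were chosen by name, with earlier results of these data known: SLC15A1, SLC6A19, SLC6A20, SLC7A9, SLC3A1, SLC1A1, SLC36A1, SLC7A7, SLC7A5 and SLC3A2. A gene was kept where a row of the deposited array table had an annotation that named that gene and no other, and the brightest row by the mean of all arrays stood for the gene. All 10 members were found, each with 1 row, among 22395 genes chosen the same way.

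Caco-2 is an established line from a human colorectal adenocarcinoma that takes on features of absorptive enterocytes when it is left to differentiate on a membrane. The cells were used between passages 29 and 45 and were cultured for 21 days in either of 2 systems, static Transwell inserts or a perfused gut-on-chip (100 µL per h). In both systems the culture medium held serum and added non-essential amino acids. On day 21 the upper side of the cells received, for 6 h, a suspension of TiO2 or of ZnO nanomaterial, or a TiO2-control or ZnO-control medium that held the dispersion solution without metal. Transwell cultures received 50 µg per mL TiO2 or 10 µg per mL ZnO, and chips received 100 µg per mL TiO2 or 80 µg per mL ZnO, doses that a deposition model gave as equal on the cells. Flow in the chip was stopped for those 6 h. The 31 arrays form 8 groups, 1 for each culture system and medium, with 4 arrays in each group except for 3 in TiO2-exposed Transwell cultures. The numbers of arrays limit the precision of every value, and the labels do not say whether the arrays of a group came from separate cultures, so the p-values measure only the spread between these samples. As a model the line stands for 1 tumour, and its transporter levels are not those of a normal mucosa.

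Enterocytes take up the products of protein digestion through the brush border and pass them on through the basolateral membrane. SLC15A1 (PEPT1) carries di- and tripeptides together with protons, and the apical sodium-proton exchanger SLC9A3 maintains the proton gradient that it uses. Neutral amino acids enter with sodium through SLC6A19, proline and other imino acids through SLC6A20, glutamate and aspartate through SLC1A1, and small amino acids with protons through SLC36A1, which is also found on lysosomes. SLC7A9 exchanges cystine and dibasic amino acids for neutral ones and reaches the membrane only when it is joined to the glycoprotein SLC3A1, and loss of either gene causes cystinuria. On the basolateral side SLC3A2 (CD98) plays the partner's role for SLC7A7, which releases dibasic amino acids, and for SLC7A5 (LAT1), an exchanger of large neutral amino acids that dividing cells also use for uptake.

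All values are log2 expression values made by the authors with RMA, a method that corrects background, makes the arrays' distributions alike and summarises the probes of a row. Array medians over all rows lay between 3.24 and 3.33. A gene passed where limma's adjusted p was below 0.05, in a fit of all 31 arrays with Benjamini-Hochberg adjustment over 22395 genes. Of the 12 listed epithelial and enterocyte markers 11 were measured, and the group means of all 11 lay above the array medians, with CDH1 between 12.01 and 12.18 and EPCAM between 11.55 and 11.65. The summed level of this list on a linear scale was 12060 to 13550 in chip groups and 14960 to 15330 in Transwell groups. Of 4 measured immune markers the leukocyte markers PTPRC and CD3E were below the array medians in every group, while CSF1R read 6.67 to 6.94 in chip groups and 5.56 to 5.74 in Transwell groups. The monocyte marker CD14 had a group mean of 6.45 in TiO2-exposed chips, 5.34 to 5.70 in the other chip groups and 5.51 to 5.76 in Transwell groups. The summed level of the immune list was 156 to 200.9 in chip groups and 103.1 to 114.3 in Transwell groups. In every group 2 of 4 fibroblast markers and at least 1 of 3 endothelial markers were below the array medians, and the summed levels were 62.1 to 98.75 and 21.37 to 32.87. The part of any of these lists in the results was not tested. In bulk samples such as these, fewer cells of a type and less RNA per cell cannot be told apart.

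The 2 chip arrays of the TiO2 set that carry replicate number 4 stood apart from the rest of their groups. Over 11197 genes, the deviations of the TiO2-control array numbered 4 from the mean of the 8 chip arrays of this set correlated at -0.275 on average with its own group and at -0.09 with the exposed group. For the exposed array numbered 4 these values were -0.357 and -0.05. The other 6 arrays of the set had values from -0.07 to 0.03 with their own group and from -0.236 to -0.197 with the other. Whether the labels of these 2 arrays are exchanged was not tested. Both arrays were kept under their labels, and the values without both are given beside the results that they move. The 2 arrays were singled out from these same values. Leaving out arrays that resemble the other group tends to widen the difference between the groups and to narrow their spread. Calls gained that way are therefore a description and not an independent test.

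Before the expression values, the sequence just upstream of 3 members is shown: SLC6A20 and SLC7A9, which had the largest differences between chip and Transwell in each direction, and SLC3A2, the shared partner subunit. The sequences are from RefSeq on GRCh38.p14, 5′ to 3′ on the gene's strand, with matches to a searched motif in capitals. SLC6A20 lies on the minus strand, and the 170 bases before its start are chr3:45796537-45796706.
SLC6A20: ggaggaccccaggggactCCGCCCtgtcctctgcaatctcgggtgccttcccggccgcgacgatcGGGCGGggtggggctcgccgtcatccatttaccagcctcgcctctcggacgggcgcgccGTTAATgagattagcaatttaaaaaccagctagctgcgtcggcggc
SLC7A9 also lies on the minus strand, and its stretch is chr19:32869768-32869937.
SLC7A9: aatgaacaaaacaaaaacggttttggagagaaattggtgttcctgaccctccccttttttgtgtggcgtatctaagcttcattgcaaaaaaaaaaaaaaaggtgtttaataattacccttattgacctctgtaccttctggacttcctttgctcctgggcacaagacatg
SLC3A2 lies on the plus strand, and the stretch before the last of its 3 listed starts is chr11:62881529-62881698.
SLC3A2: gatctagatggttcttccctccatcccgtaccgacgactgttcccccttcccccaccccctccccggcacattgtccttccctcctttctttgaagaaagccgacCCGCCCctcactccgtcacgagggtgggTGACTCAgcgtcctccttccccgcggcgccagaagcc
A further 20 bases from the same start, chr11:62881729-62881748, hold a match that lies after the first transcribed base.
SLC3A2 after the start: ggactccTTACATCAgctcc

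RefSeq held 14 such windows, each of 250 bases before and 50 bases from a start, for 9 of the members, and 35116 windows in all. SLC7A9 stood out by its base composition, with a GC content of 41.0% against a median of 58.7% over all windows, while SLC6A20 had 68.0%, SLC15A1 76.3% and SLC7A5 80.3%. In SLC6A20 the HNF1 core GTTAAT was found at positions -46 to -41, where -1 is the last base before the start, and this motif was in 6.88% of all windows. It was also in the window of SLC6A19, which was the only member window with the TATA box TATAAA (11.5% of all windows). The AP-1 motif TGANTCA was in the windows of SLC15A1 and SLC3A2 and in 7.71% of all windows. The composite ATF4 and C/EBP motif TGATGNAA was found for SLC3A2 alone, 37 to 44 bases after the first transcribed base on the other strand, and in 3.62% of all windows. The Sp1 motif GGGCGG was in 9 of the 14 windows, those of 7 members, and in 45.0% of all windows, and the CDX2 motif TTTATGG was in 0 of the 14 and in 2.54% of all. Both strands were searched, AP-1 reads the same on both, and none of the matches in member windows overlapped a match to another motif. A match describes the letters and does not show that a factor binds.

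The first comparison asked how culture in the chip differed from culture on Transwell inserts, over the mean of both control media. The transporters did not move in 1 direction. SLC6A20, SLC3A2 and SLC15A1 were higher in the chip, SLC7A9, SLC3A1, SLC36A1, SLC1A1 and SLC7A7 were lower, and SLC6A19 and SLC7A5 did not pass. Thus 8 of 10 members passed, 3 higher and 5 lower, where 33.5% of all genes passed, 14.6% higher and 18.9% lower. The members were chosen with earlier results of these data known, and the share is over genes of all levels. Here and below such shares are context, and the counts are not an independent test. The median difference of the members was -0.22 and the median of its size was 0.58, against -0.0037 and 0.18 over all genes. Without both arrays numbered 4 the count was again 8, and 34.4% of all genes passed. Over all 16 chip and 15 Transwell arrays, 3 of 10 members (SLC6A20, SLC7A9 and SLC36A1) had values that did not overlap between the systems, as had 6.70% of all genes.

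**Figure D1:**
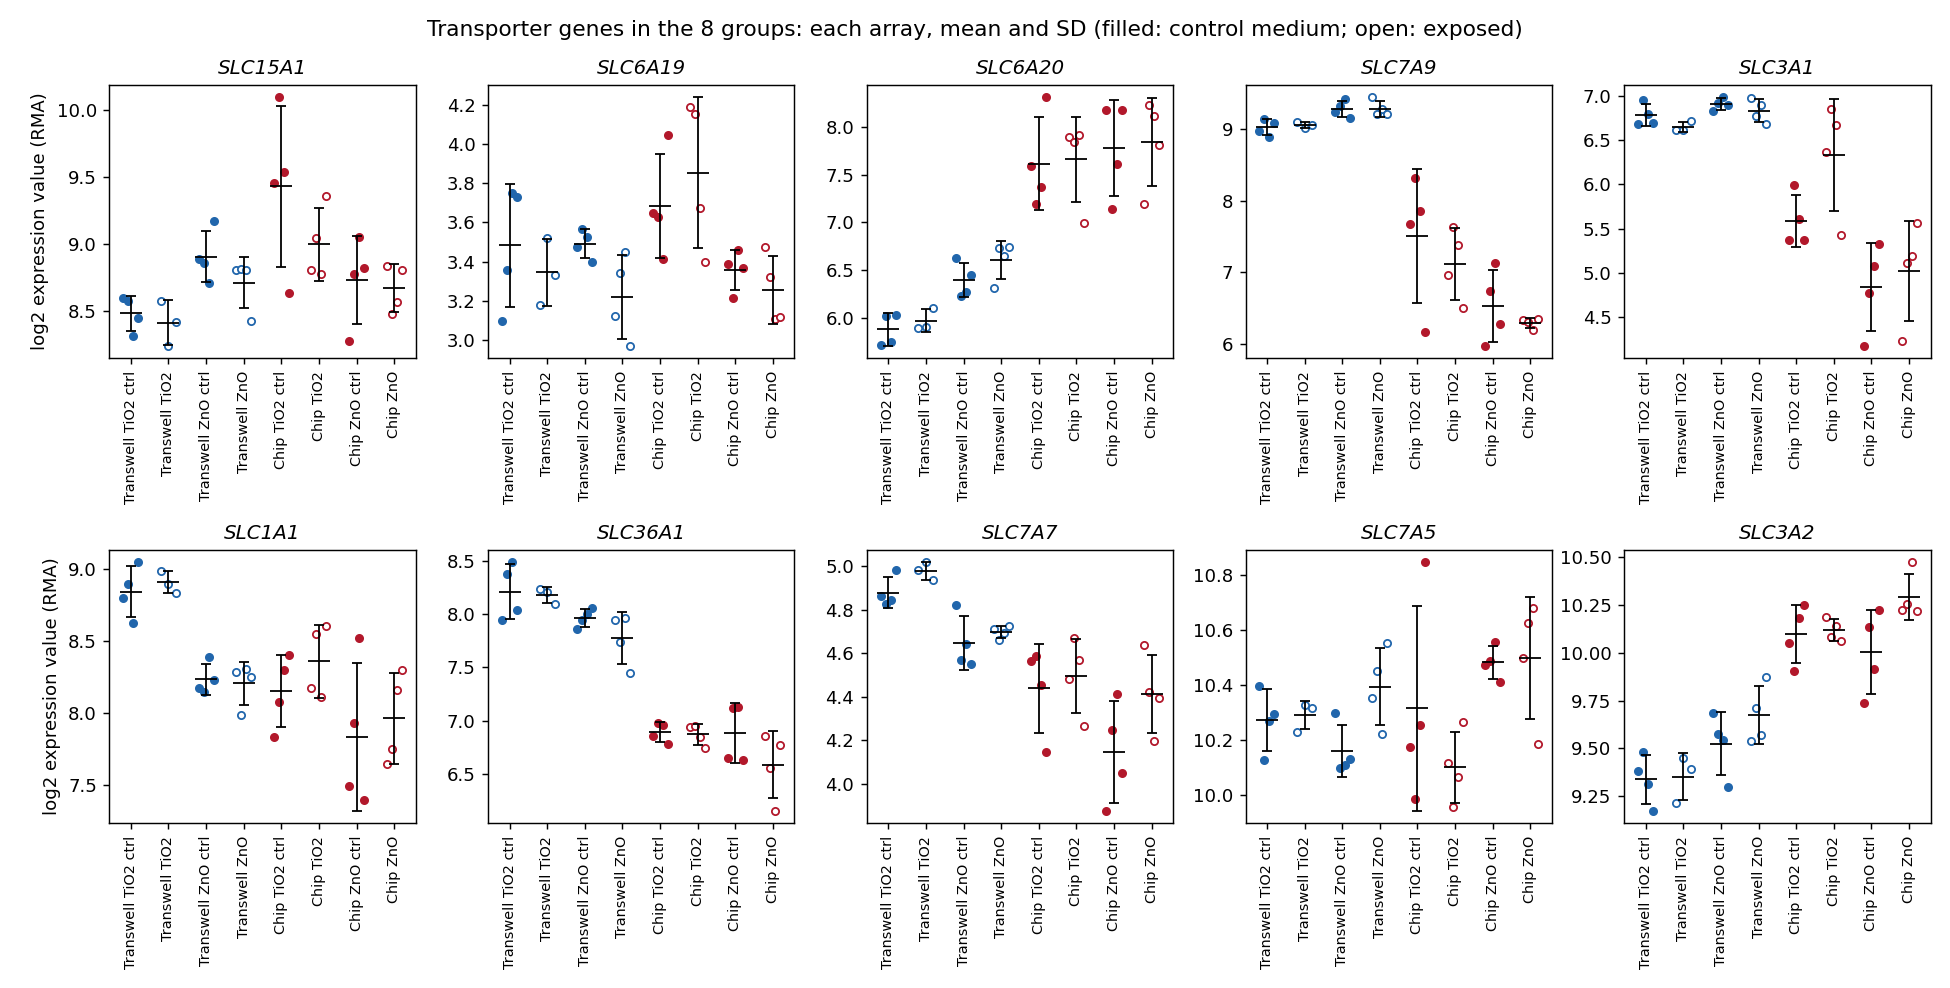
Log2 expression values (RMA, vertical axes, scaled separately for each gene) of the 10 transporter genes in the 8 groups, with a point for each array and the group mean and SD in black. Blue marks Transwell and red marks chip arrays, filled points are control media and open points are exposures. SLC7A9 and SLC36A1 lie lower and SLC6A20 higher in every chip array than in any Transwell array. The values of all other members overlap between the systems over all arrays.

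SLC7A9 showed the largest difference. The Transwell arrays read 8.98, 9.14, 8.89 and 9.08 in TiO2-control medium, 9.09, 9.01 and 9.05 after TiO2, 9.24, 9.31, 9.41 and 9.15 in ZnO-control medium, and 9.44, 9.20, 9.28 and 9.20 after ZnO. The chip arrays read 7.67, 8.32, 7.86 and 6.16 in TiO2-control medium and 6.96, 7.64, 7.38 and 6.50 after TiO2. In the ZnO set the chip arrays read 5.98, 6.74, 7.12 and 6.28 in control medium and 6.34, 6.30, 6.19 and 6.35 after ZnO. Every chip array was below every Transwell array, and the chip arrays were spread more widely. In limma the difference over both control media was -2.13 ± 0.20 (log2, SE), 4.39-fold lower in the chip, with adjusted p = 1.17e-09. It was -1.52 in TiO2-control medium, -1.93 after TiO2, -2.75 in ZnO-control medium and -2.98 after ZnO, and it passed in each. Without both arrays numbered 4 the difference over both control media was -1.91 ± 0.13.

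SLC3A1, the partner that SLC7A9 needs, was also lower. Transwell arrays read 6.69, 6.96, 6.80 and 6.70 in TiO2-control medium and 6.83, 6.93, 6.99 and 6.90 in ZnO-control medium. Chip arrays read 5.37, 6.00, 5.60 and 5.37 in TiO2-control medium and 4.17, 4.76, 5.08 and 5.32 in ZnO-control medium. In control media no chip array reached the lowest Transwell array. The difference was -1.64 ± 0.18, 3.12-fold lower, with limma's adjusted p = 1.68e-08. After TiO2, however, chip arrays read 6.37, 6.86, 6.67 and 5.43 and Transwell arrays 6.61, 6.62 and 6.72, so the groups overlapped and the difference of -0.32 ± 0.27 did not pass (limma adjusted p = 0.500). The lowest of those chip arrays is the one numbered 4, and without both arrays numbered 4 the difference was -0.02 ± 0.25 (limma adjusted p = 0.977). After ZnO the chip arrays read 4.22, 5.11, 5.19 and 5.56 and the Transwell arrays 6.98, 6.78, 6.90 and 6.69, a difference of -1.82. Across arrays the levels of the 2 partners had Pearson r = 0.598 over the 16 chip arrays and 0.700 over the 15 Transwell arrays, a description of arrays that share medium and set.

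SLC6A20, the imino acid transporter, went the other way. Transwell arrays read 5.72, 6.02, 5.74 and 6.03 in TiO2-control medium, 5.89, 5.90 and 6.11 after TiO2, 6.62, 6.23, 6.27 and 6.45 in ZnO-control medium, and 6.32, 6.73, 6.64 and 6.74 after ZnO. Chip arrays read 7.59, 7.19, 7.37 and 8.31 in TiO2-control medium, 7.89, 7.84, 7.92 and 6.997 after TiO2, 8.18, 7.14, 7.61 and 8.18 in ZnO-control medium, and 7.20, 8.23, 8.12 and 7.82 after ZnO. Every chip array was above every Transwell array. The difference over both control media was 1.56 ± 0.17, 2.96-fold higher, with limma's adjusted p = 2.05e-08. In the single media it lay between 1.23 after ZnO and 1.74 in TiO2-control medium, and it passed in all 4. Its sodium-coupled relative SLC6A19 had group means between 3.22 and 3.86, near the array medians, and whether they are above background was not tested. It had a difference of 0.03 ± 0.12 (limma adjusted p = 0.871, 95% interval -0.21 to 0.27) over both control media. After TiO2 exposure it passed, at 0.51 ± 0.18 (limma adjusted p = 0.0444). That call was lost, with limma's adjusted p up to 0.184, when Transwell TiO2 replicate 1 or 3 or chip TiO2 replicate 1 or 2 was left out, and under 5 other settings.

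SLC36A1, the proton-coupled carrier of small amino acids, was lower in the chip in all 4 media. Its chip arrays lay between 6.16 and 7.13, with a median of 6.85, and its Transwell arrays between 7.45 and 8.49, with a median of 8.001. The highest chip array was therefore below the lowest Transwell array. The difference over both control media was -1.20 ± 0.10, 2.30-fold lower (limma adjusted p = 2.65e-10), and it was -1.32, -1.31, -1.08 and -1.19 in TiO2-control medium, after TiO2, in ZnO-control medium and after ZnO.

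SLC1A1, the glutamate and aspartate transporter, was lower by less. Chip arrays read 7.84, 8.08, 8.30 and 8.41 in TiO2-control and 7.49, 7.93, 8.52 and 7.40 in ZnO-control medium, against 8.80, 8.90, 8.63 and 9.05 and 8.17, 8.15, 8.39 and 8.23 on Transwell. The groups were apart in TiO2-control medium, and in ZnO-control medium 1 chip array lay above all Transwell arrays. The difference over both was -0.54 ± 0.13 (limma adjusted p = 0.00137). It passed in TiO2-control medium (-0.69), and it did not pass in ZnO-control medium (-0.40), after TiO2 (-0.55) or after ZnO (-0.24). In ZnO-control medium it passed with array weights (-0.47, limma adjusted p = 0.0347). There it also passed when chip ZnO-control replicate 3 was left out (-0.63, limma adjusted p = 0.00505). After TiO2 the chip arrays (8.12 to 8.61) were below all Transwell arrays (8.84 to 8.99), with limma's adjusted p = 0.0558. That difference passed under 6 of 10 alternative settings: an intensity trend, array weights, a replicate block, genes above the median level, only the groups compared, and without both arrays numbered 4 (-0.63 ± 0.21, limma adjusted p = 0.0379).

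SLC15A1, the peptide transporter, differed with the medium. In TiO2-control medium the chip arrays read 9.46, 10.10, 9.54 and 8.64 and the Transwell arrays 8.60, 8.58, 8.32 and 8.45. In ZnO-control medium the chip arrays read 8.28, 8.78, 9.06 and 8.82 and the Transwell arrays 8.89, 8.86, 8.71 and 9.17. Chip arrays were thus above all Transwell arrays in the first medium, the array numbered 4 by the least, and overlapped them in the second. The difference was 0.95 ± 0.20 in TiO2-control medium, 1.93-fold higher (limma adjusted p = 0.000790), and -0.17 ± 0.20 in ZnO-control medium (limma adjusted p = 0.616). After ZnO it was -0.04 ± 0.20 (limma adjusted p = 0.924) and after TiO2 0.58 ± 0.22 (limma adjusted p = 0.0631). After TiO2 the chip arrays (8.78 to 9.36) were above all Transwell arrays (8.24 to 8.58). That difference passed under 3 of 10 alternative settings: an intensity trend, array weights, and genes above the median level (limma adjusted p 0.0334 to 0.0446). Without both arrays numbered 4 it was 0.46 ± 0.18 and did not pass (limma adjusted p = 0.0749). The mean over both control media, 0.39 ± 0.14, passed narrowly (limma adjusted p = 0.0370). It lost the call when any of 11 of its 16 arrays was left out: chip TiO2-control replicates 1, 2 and 3, chip ZnO-control replicates 2, 3 and 4, Transwell TiO2-control replicates 3 and 4, or Transwell ZnO-control replicates 1, 2 and 3. The lowest value, 0.28 with limma's adjusted p = 0.115, was without chip TiO2-control replicate 2. Without both arrays numbered 4 it was 0.52 ± 0.11 (limma adjusted p = 0.000610).

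The basolateral partner SLC3A2 was higher in the chip in all 4 media. Chip arrays read 10.05, 9.90, 10.18 and 10.25 in TiO2-control and 9.74, 10.14, 9.92 and 10.23 in ZnO-control medium, and Transwell arrays 9.38, 9.48, 9.31 and 9.18 and 9.69, 9.57, 9.54 and 9.30. Within each control medium the chip arrays were above all Transwell arrays. The difference over both was 0.62 ± 0.08, 1.53-fold higher (limma adjusted p = 3.91e-07), and it lay between 0.48 and 0.77 in the single media. Its light chain SLC7A7 read 3.88 to 4.67 in chip and 4.55 to 5.02 in Transwell arrays and was lower by -0.47 ± 0.08 (limma adjusted p = 3.84e-05), though after ZnO its difference of -0.28 did not pass (limma adjusted p = 0.0701). The other light chain, SLC7A5, had overlapping ranges, with 9.96 to 10.85 in chip and 10.10 to 10.55 in Transwell arrays, and its difference of 0.18 ± 0.09 did not pass (limma adjusted p = 0.146, 95% interval -0.01 to 0.38). In ZnO-control medium its chip arrays (10.41 to 10.56) were above its Transwell arrays (10.10 to 10.30), and the difference of 0.32 ± 0.13 did not pass (limma adjusted p = 0.0722). It passed under 4 of 9 alternative settings, with limma's adjusted p between 0.0369 and 0.0416: an intensity trend, array weights, genes above the median level, and only the groups compared. The genome holds near-identical partial copies of SLC7A5, so its value is uncertain. Over the 16 chip arrays SLC7A5 and SLC3A2 had Pearson r = 0.323, and over the 15 Transwell arrays 0.405.

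**Figure D2:**
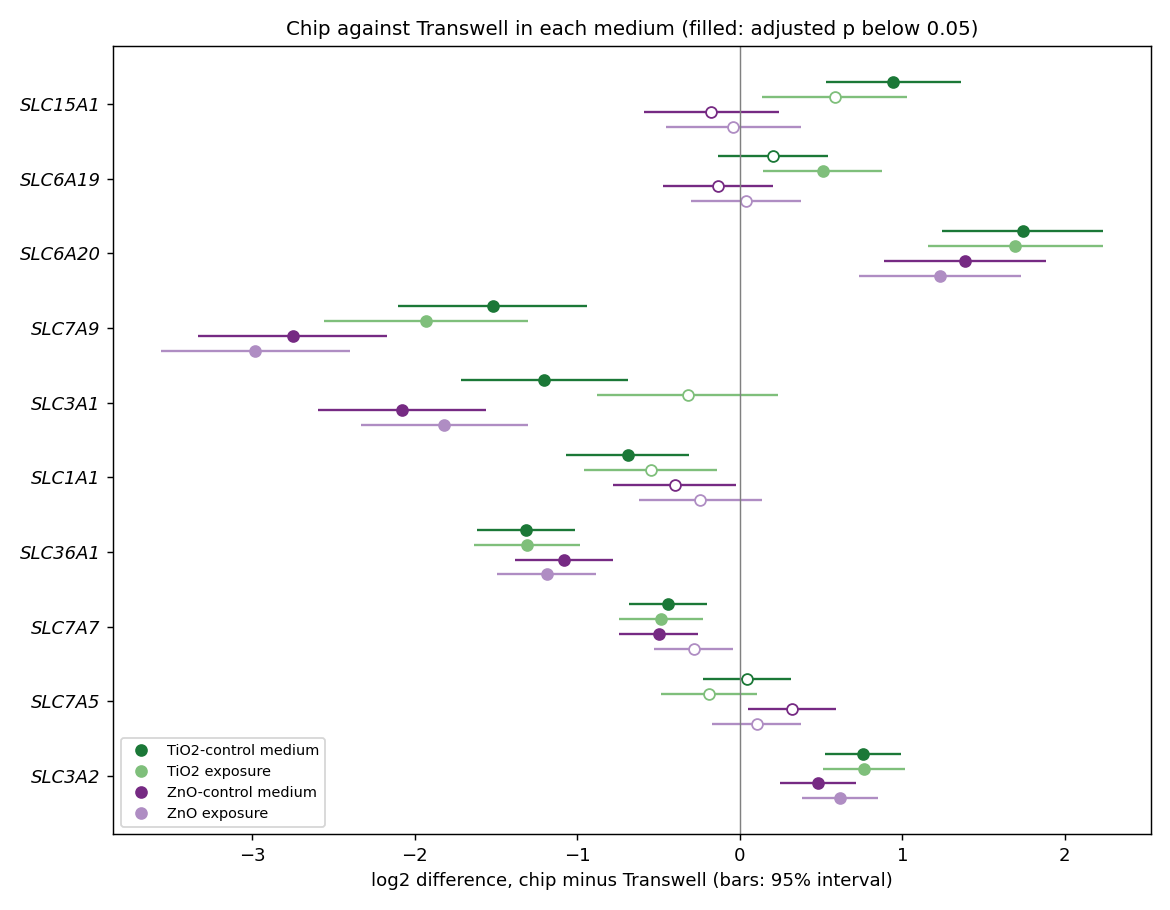
Difference between chip and Transwell (log2, horizontal axis) for each transporter gene in the 4 media, with 95% intervals, where filled points passed at adjusted p below 0.05 (limma). SLC6A20 and SLC3A2 are on the right and SLC7A9 and SLC36A1 on the left in all 4 media, while SLC15A1 is at 0.95 in TiO2-control medium and near 0 in the ZnO set.

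Medium by medium, 8 of 10 members passed in TiO2-control medium (3 higher, 5 lower), where 22.9% of all genes did, and 6 in ZnO-control medium (2 higher, 4 lower), where 27.2% did. After TiO2 exposure 6 passed (3 higher, 3 lower) against 18.2% of all genes (7 without both arrays numbered 4, against 18.1%), and after ZnO exposure 5 (2 higher, 3 lower) against 29.8%. SLC6A20, SLC7A9, SLC36A1 and SLC3A2 passed in all 4, and the share of all genes that did so was not counted. The SD within groups was larger in the chip for every member, though for SLC3A2 it was 0.150 against 0.143 on Transwell. It was 0.587 against 0.0998 for SLC7A9, 0.515 against 0.0998 for SLC3A1, and 0.379 against 0.172 for SLC15A1. The chip value of SLC7A9 includes the TiO2-control array numbered 4, at 6.16 beside 7.67, 8.32 and 7.86. The SD without the arrays numbered 4 and the SD over all genes were not compared. Limma used 1 variance per gene for both systems. For SLC7A9, SLC3A1 and SLC15A1 the SEs and intervals therefore understate the spread within the chip and overstate it on Transwell inserts.

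Ordered by group means, SLC6A20 fell into 3 steps without overlap of arrays between them: the 4 chip groups (7.84 ± 0.46, SD, n = 4, after ZnO, down to 7.62 ± 0.49 in TiO2-control medium), the Transwell groups of the ZnO set (6.61 ± 0.20 and 6.39 ± 0.18) and those of the TiO2 set (5.97 ± 0.12, n = 3, and 5.88 ± 0.17). SLC7A9 also had 3 steps, with the Transwell ZnO set first (9.28 ± 0.11 after ZnO and in its control medium), the Transwell TiO2 set next (9.05 ± 0.04, n = 3, and 9.02 ± 0.11) and the chip groups last, from 7.50 ± 0.93 in TiO2-control medium to 6.30 ± 0.07 after ZnO. SLC36A1 had the Transwell TiO2 set first (8.21 ± 0.26 and 8.18 ± 0.07), the Transwell ZnO set next (7.96 ± 0.08 and 7.77 ± 0.24) and the chip groups last (6.89 ± 0.09 to 6.59 ± 0.31), although the 2 control groups on Transwell overlapped. For SLC1A1 and SLC7A7 the 1 gap lay below the Transwell groups of the TiO2 set, and for SLC3A2 the ZnO-exposed chips (10.29 ± 0.12) overlapped no array of the next group in the order, TiO2-exposed chips, but did overlap both chip control groups. For SLC15A1, SLC6A19, SLC3A1 and SLC7A5 every group overlapped the next in the order.

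The next comparison set the 2 control media against each other within a culture system. The labels do not say whether the TiO2 and ZnO sets were cultured or hybridised together, so medium and set cannot be told apart. On Transwell inserts SLC1A1 was lower in ZnO-control than in TiO2-control medium, by -0.61 ± 0.19, 1.52-fold (limma adjusted p = 0.0438). It was the 1 member of 10 that passed, where 6.64% of all genes passed, and its call was lost when any 1 of its 8 arrays was left out (limma adjusted p 0.0510 to 0.129). In a fit of the Transwell arrays alone 3 members passed, where 13.3% of all genes did, SLC6A20 at 0.52 (limma adjusted p = 0.0119) and SLC15A1 at 0.42 (limma adjusted p = 0.0329) being higher in ZnO-control medium besides SLC1A1. With exposed arrays included, the 7 Transwell arrays of the TiO2 set and the 8 of the ZnO set did not overlap for SLC6A20 (5.72 to 6.11 against 6.23 to 6.74), SLC7A9 (8.89 to 9.14 against 9.15 to 9.44), SLC1A1 (8.63 to 9.05 against 7.99 to 8.39) and SLC7A7 (4.83 to 5.02 against 4.55 to 4.82). These are 4 of 10 members, where 10.5% of all genes did not overlap.

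In the chip 0 of 10 members passed between the control media, where 0.058% of all genes (13) passed. At an unadjusted p below 0.05 there were 4 members and 2171 genes in all. The largest differences were SLC7A9 at -0.97 ± 0.28 (limma adjusted p = 0.201), SLC3A1 at -0.75 ± 0.25 (adjusted p = 0.297) and SLC15A1 at -0.70 ± 0.20 (adjusted p = 0.199). These SEs rest on a variance shared with the less spread Transwell arrays. Over the alternative settings limma's adjusted p ran from 0.000164 to 0.813 for SLC7A9, 0.0672 to 0.799 for SLC3A1 and 0.00256 to 0.813 for SLC15A1. Without both arrays numbered 4, 388 genes (1.73%) passed in limma, with SLC7A9 at -1.42 (adjusted p = 0.000164) and SLC15A1 at -0.96 (adjusted p = 0.00256) among them. These calls came from leaving out arrays singled out from the same values. The test of whether the media differed by unlike amounts in chip and Transwell passed for SLC15A1, at -1.12 ± 0.29 (limma adjusted p = 0.0298), being 0.42 on Transwell and -0.70 in the chip. It was 1 of 10 members, where 2.74% of all genes passed. That call was lost when any of 8 of the 16 arrays was left out, with adjusted p up to 0.0699: chip TiO2-control replicates 2 and 3, chip ZnO-control replicate 1, Transwell TiO2-control replicates 3 and 4, and Transwell ZnO-control replicates 1, 2 and 4. For SLC7A9 the value was -1.23 ± 0.40 (limma adjusted p = 0.0950), and without both arrays numbered 4 it was -1.68 (adjusted p = 0.000458).

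The exposures were then compared with their own control media. None of the 10 members passed in any of the 4 comparisons. ZnO on Transwell inserts gave 0 members, where 0% of all genes passed (835 genes and 0 members at an unadjusted p below 0.05 in limma), and the members' 95% intervals lay within -0.61 and 0.71. TiO2 on Transwell inserts also gave 0 members and 0% of all genes (591 genes and 0 members at an unadjusted p below 0.05), with intervals within -0.69 and 0.66. All of these intervals lay within 1 log2 unit of 0. Each is for a single gene, is not adjusted for the number of members, and rests on a variance shared with the chip arrays. They describe the spread between these arrays and do not exclude a larger change.

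In the chip ZnO gave 0 members, where 0.272% of all genes (61) passed. SLC3A2 read 9.74, 10.14, 9.92 and 10.23 in control medium and 10.22, 10.25, 10.47 and 10.22 after ZnO, with 1 control array inside the exposed range. Its difference was 0.29 ± 0.11 (limma adjusted p = 0.384), and those of SLC7A7 (0.27), a light chain that it carries, and SLC36A1 (-0.30) did not pass either. SLC3A2 and SLC7A7 were the 2 members, and 2109 genes in all, with an unadjusted p below 0.05. The intervals of all members lay within -0.81 and 0.70. The difference in ZnO response between chip and Transwell passed for 0 members and for 1 gene in all (0.00447%), with 0 members and 1345 genes at an unadjusted p below 0.05.

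TiO2 in the chip also gave 0 members, where 0% of all genes passed. SLC3A1 read 5.37, 6.00, 5.60 and 5.37 in control medium and 6.37, 6.86, 6.67 and 5.43 after TiO2. Thus 3 exposed arrays were above all controls, and the exposed array numbered 4 lay within the range of the controls. Its difference was 0.75 ± 0.25 (limma adjusted p = 0.377). SLC15A1 read 9.46, 10.10, 9.54 and 8.64 in control medium and 8.81, 9.05, 8.78 and 9.36 after TiO2, where the 2 arrays numbered 4 lay toward the other group, and its difference was -0.43 ± 0.20 (adjusted p = 0.546). These were the 2 members, and 1997 genes in all, with an unadjusted p below 0.05. Without both arrays numbered 4, 73 genes (0.326%) passed, among them SLC15A1 at -0.82 ± 0.18 (limma adjusted p = 0.0408), while SLC3A1 at 0.98 ± 0.25 (adjusted p = 0.0776), SLC7A9 at -0.62 (adjusted p = 0.157) and SLC6A20 at 0.50 (adjusted p = 0.347) did not. The call of SLC15A1 there rests on leaving out arrays singled out from these same values, so it is a description and not an independent test. The TiO2-control arrays of the chip enter this comparison and the chip against Transwell comparison alike, so their values for a gene are not independent. The difference in TiO2 response between the systems passed for 0 members and 0% of all genes, with SLC3A1 at 0.88 ± 0.37 (limma adjusted p = 0.878) the 1 member among 1215 genes with an unadjusted p below 0.05. It passed for 0 members and 1 gene in all (0.00447%) without both arrays numbered 4, with SLC3A1 at 1.11 ± 0.34 (limma adjusted p = 0.284) and SLC15A1 at -0.75 ± 0.24 (limma adjusted p = 0.320).

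**Figure D3:**
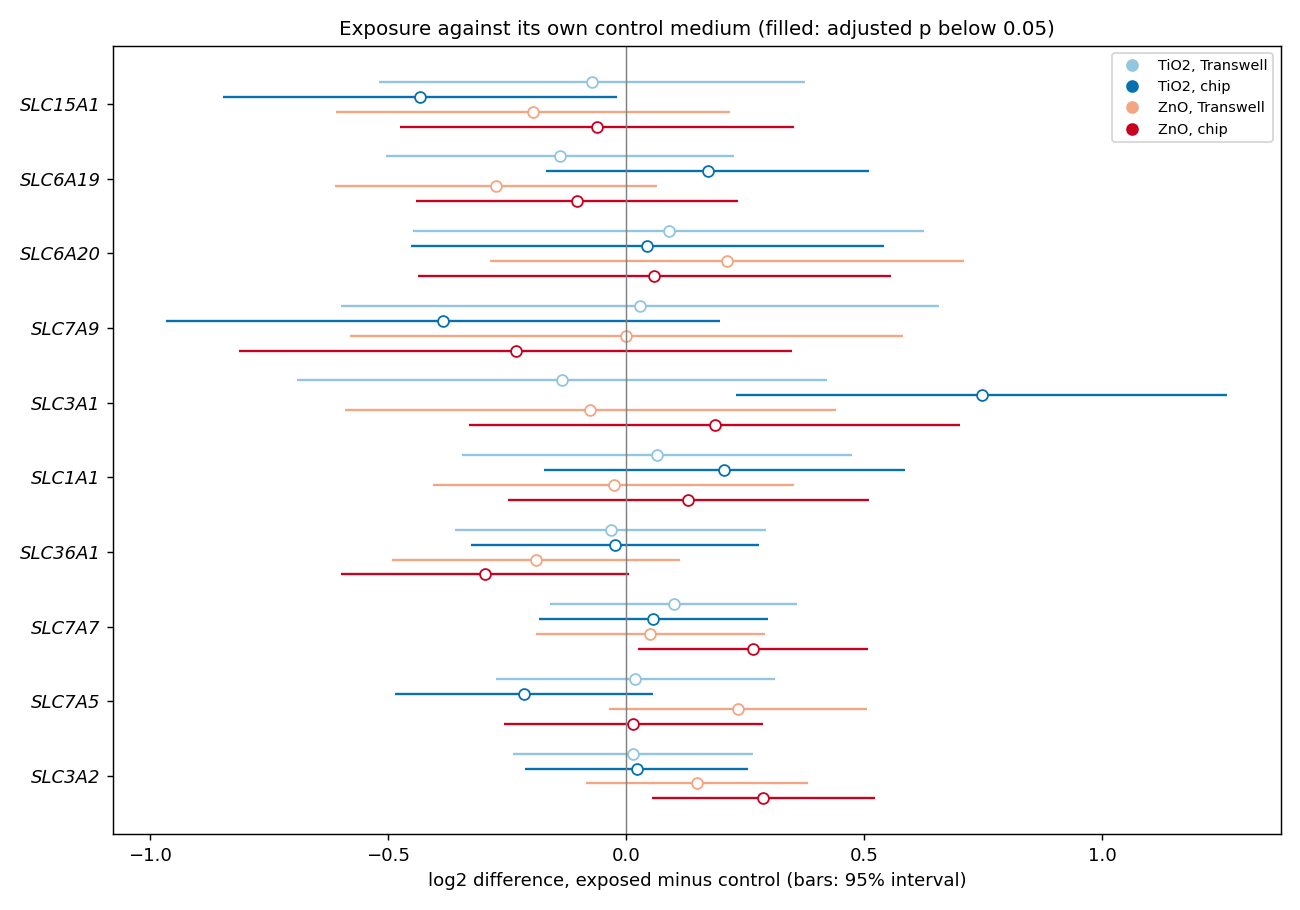
Difference between exposed and control cultures (log2, horizontal axis) for each transporter gene, with 95% intervals, for TiO2 and ZnO on Transwell inserts and in the chip. All points are open, since 0 of 10 members passed in any comparison, and SLC3A1 after TiO2 in the chip lies farthest from 0, at 0.75.

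**Figure D4:**
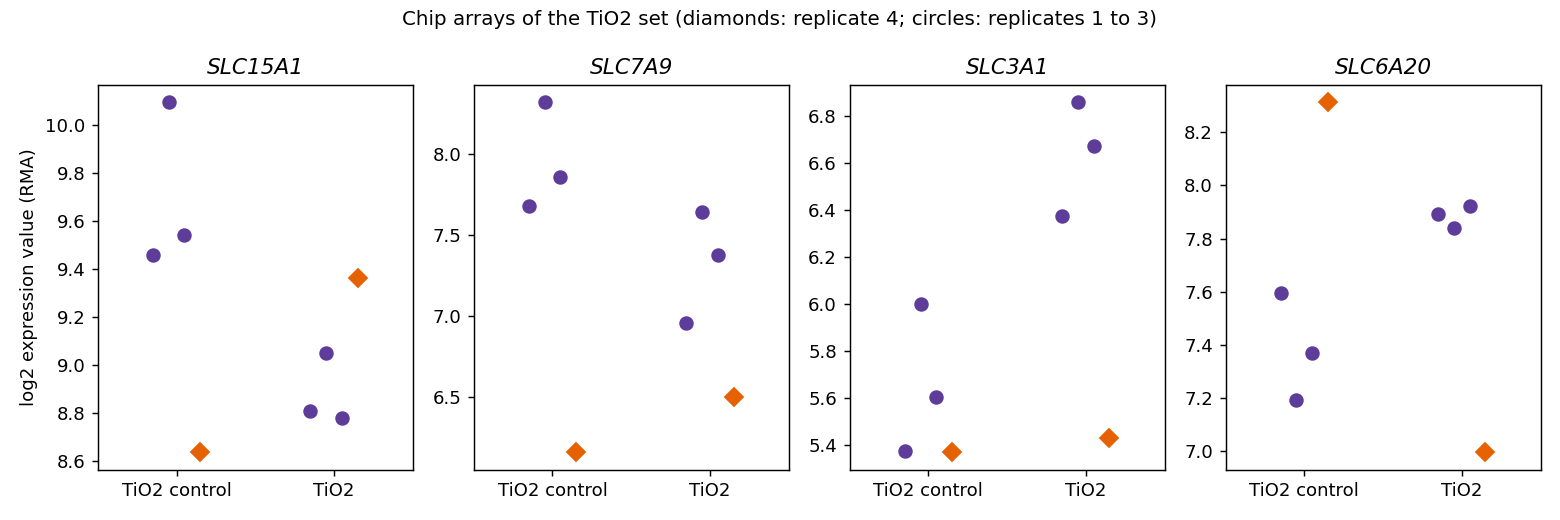
Log2 expression values (RMA) of 4 transporter genes in the chip arrays of the TiO2 set, with circles for replicates 1 to 3 and diamonds for replicate 4. For SLC15A1 the control diamond at 8.64 lies below all exposed arrays and the exposed diamond at 9.36 lies above the other exposed arrays. For SLC6A20 the control diamond at 8.31 and the exposed diamond at 6.997 are at the 2 ends. For SLC7A9 the control diamond at 6.16 and the exposed diamond at 6.50 are each the lowest of their group. The same holds for SLC3A1, at 5.37 and 5.43.

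Other carriers were taken from lists made beside the members, also with earlier results of these data known. They were compared between chip and Transwell over both control media, where 14.6% of all genes were higher and 18.9% lower. Of 23 further plasma membrane amino acid and peptide transporters 5 were higher and 7 lower (median -0.08), again in both directions. The aromatic amino acid transporter SLC16A10, which works on the basolateral side, was lower by -1.86 ± 0.14, the taurine transporter SLC6A6 by -1.39 ± 0.15 and the SLC36A1 relative SLC36A4 by -1.46 ± 0.16, while the glutamine exchanger SLC1A5 was higher, at 0.51 ± 0.06. The other carriers that were higher were named after their values were seen: the cystine-glutamate exchanger SLC7A11 (1.36 ± 0.17), which also pairs with SLC3A2, the cationic amino acid carrier SLC7A1 (0.74 ± 0.08), SLC38A3 (0.55 ± 0.16) and SLC38A1 (0.27 ± 0.08). Of 6 lysosomal transporters 3 were lower and 0 higher: the cystine exporter CTNS (-1.31 ± 0.11), SLC38A7 (-1.08 ± 0.12) and the amino acid sensor SLC38A9 (-0.52 ± 0.09).

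Proteins that work beside the carriers in the brush border were measured for 5 of 9 listed genes, of which 2 were higher and 2 lower in the same comparison (14.6% and 18.9% of all genes). The sodium-proton exchanger SLC9A3 was higher (1.16 ± 0.20), as was CLTRN (0.62 ± 0.17), a partner of amino acid transporters in the kidney. The aminopeptidase ANPEP, which releases amino acids from peptides, was lower (-0.99 ± 0.19), as was the sodium pump subunit ATP1B1 (-0.58 ± 0.10). Of 6 measured intestinal transcription factors 5 were lower and 0 higher, with GATA4 at -1.36 ± 0.15, CDX2 at -0.74 ± 0.10, GATA6 at -0.44 ± 0.06 and HNF4G at -0.64 ± 0.12. Among the 11 epithelial markers 4 were higher and 3 lower, with sucrase-isomaltase SI at -3.36 ± 0.33, villin VIL1 at -0.75 ± 0.07, and the keratins KRT19 at 0.66 ± 0.08 and KRT18 at 0.56 ± 0.08.

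Genes of the response to amino acid shortage, which the factor ATF4 drives together with SLC7A5, SLC3A2 and SLC7A11, passed in both directions, with 8 of 12 higher and 2 lower, against 14.6% and 18.9% of all genes. ATF3 had a difference of 2.43 ± 0.15, DDIT3 of 1.99 ± 0.19, DDIT4 of 1.61 ± 0.18 and TRIB3 of 1.03 ± 0.09, all of which other stresses also induce. The 2 lower genes, named after their values were seen, were the serine synthesis enzyme PHGDH (-0.30 ± 0.08) and STC2 (-0.34 ± 0.12). Without both arrays numbered 4 the counts of all these lists were the same. After ZnO in the chip ATF3 (1.04 ± 0.21, limma adjusted p = 0.0208) and SESN2 (0.73 ± 0.16, limma adjusted p = 0.0393) passed, 2 of 12, while 0 of the 23 further transporters did and 0.272% of all genes. Between the control media on Transwell inserts SLC7A11 (1.14 ± 0.24) and SLC7A2 (0.37 ± 0.11) passed among the 23, and CHAC1 (0.90 ± 0.19), ATF4 (0.30 ± 0.09) and TRIB3 (-0.82 ± 0.12) among the 12, where 6.64% of all genes passed. The chip and Transwell differed in this medium difference for SLC7A11 (-1.30 ± 0.35), 1 of the 23, and ATF4 (-0.48 ± 0.12), 1 of the 12, where 2.74% of all genes passed.

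**Figure D5:**
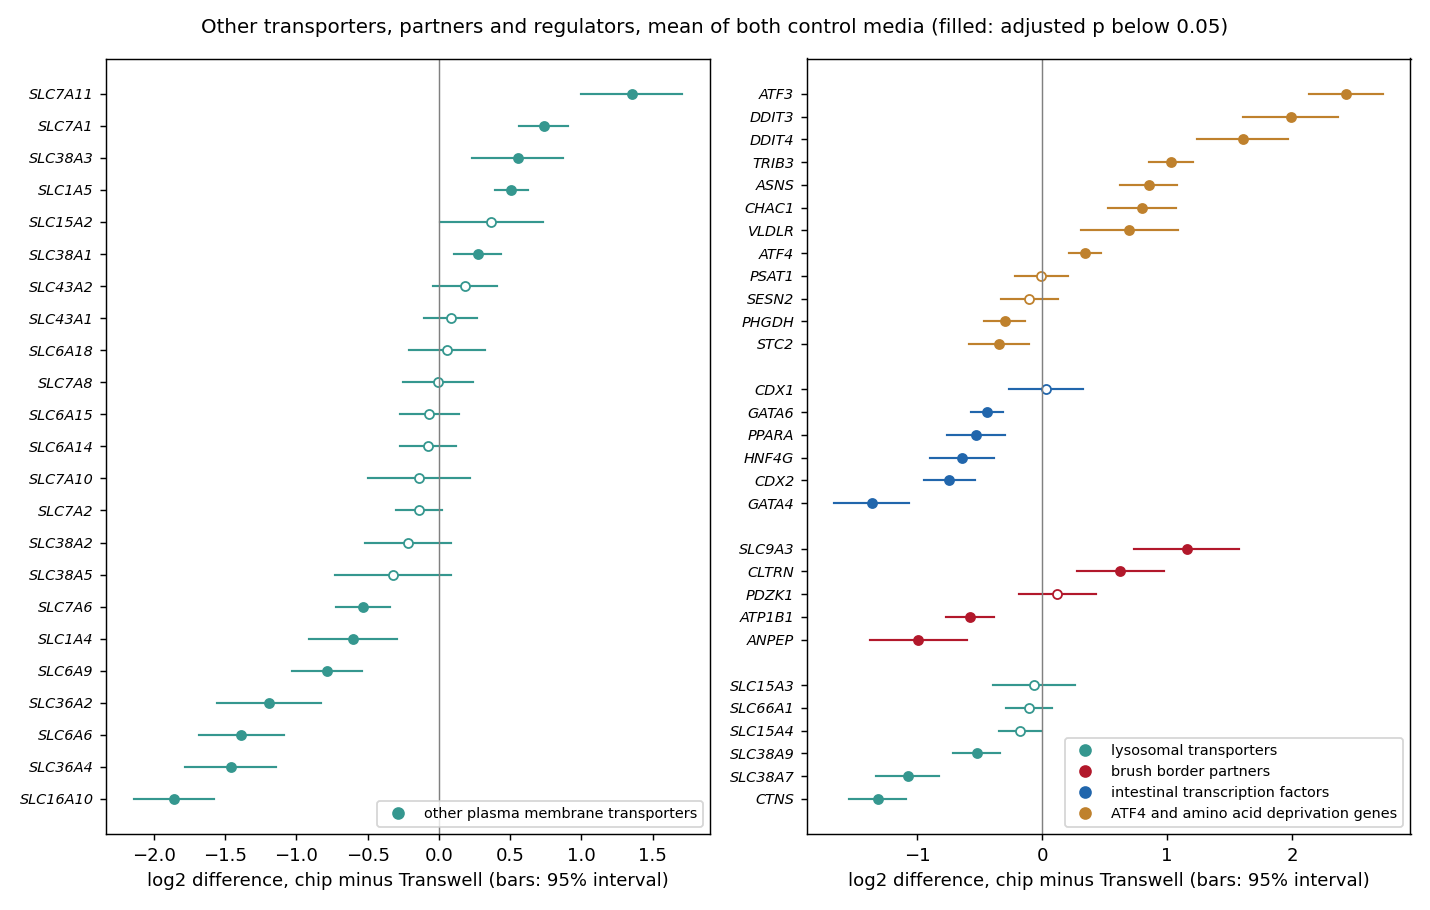
Difference between chip and Transwell (log2, horizontal axis, mean of both control media) with 95% intervals for 23 further transporters (left) and for lysosomal transporters, brush border partners, intestinal transcription factors and ATF4-related genes (right), where filled points passed at adjusted p below 0.05 (limma). Points lie on both sides of 0 for the further transporters, from SLC16A10 at -1.86 to SLC7A11 at 1.36, and the 5 filled transcription factors lie on the left.

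For each member the 2 genes with the most similar levels over the 31 arrays were found by Pearson r among about 11197 genes above the median level. Since chip and Transwell arrays form separate clusters for several members, r within each system is given beside the r over all arrays. SLC7A9 was most like SLC17A4 (0.976 over all, 0.857 in chip, 0.639 on Transwell) and CPS1 (0.974, 0.855, 0.206). SLC36A1 was most like RFLNB (0.963, 0.657, 0.834) and NHERF4 (0.961, 0.510, 0.800). For SLC3A2 these were ZFAND2A (0.939, 0.686, 0.786) and DUSP1 (0.935, 0.681, 0.750), and for SLC6A20 they were CPT1A (0.937, 0.522, 0.826) and CEACAM6 (0.934, 0.571, 0.782). For these 4 members r within each system was below r over all arrays.

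SLC3A1 was most like GUCY2C (0.935, 0.851, 0.516) and KNG1 (0.933, 0.851, -0.339), and SLC7A7 most like GALM (0.932, 0.827, 0.885) and GLMP (0.913, 0.793, 0.807). For SLC3A1 and SLC7A7 too, r within each system was below r over all arrays. For SLC1A1 the 2 genes were ST6GALNAC3 (0.861, 0.883, 0.708) and SMARCA1 (0.860, 0.688, 0.927). For SLC15A1 they were NCBP2 (0.828, 0.883, 0.481) and CD164 (0.789, 0.823, 0.422), and for SLC7A5 DNMT1 (0.723, 0.806, 0.434) and KMT2B (0.705, 0.804, 0.172). The lowest were those of SLC6A19, with MFN2 (0.620, 0.755, 0.111) and ANAPC1P2 (0.551, 0.689, -0.134), and its level was near the array medians.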

How the data were processed

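Total RNA of 31 Caco-2 samples was measured on arrays. The deposited values are log2 expression values that the authors made with RMA, per the submitters' processing notes. The RMA version, like the probe annotation and build, is not given in the sources used here. Of 53617 rows, 23871 name 1 gene, 1842 name several and 27904 list none. The brightest single-gene row stood for each of 22395 genes, and 22569 single-gene rows matched RefSeq by identifier. limma 3.58.1 in R 4.3.3 fitted 1 mean per group over 8 groups, with Benjamini-Hochberg adjustment over all genes, and the script was tested on simulated data. Depth does not apply to arrays, and their number sets the precision. The members and lists were chosen with earlier results of these data known. Named were all 10 members, up to 4 genes of each further list that passed with the smallest p, and 2 most similar genes per member. Alternatives were an intensity trend, a robust prior, array weights, a replicate block, fewer or more rows, median centring, fewer groups and leaving out arrays.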

Additional observations from a re-analysis of the deposited data

Results flagged for a closer look

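In groups of 4 arrays, 5 of 70 combinations of member and group had 1 array far from the others by Dixon's test at the 95% level, where chance gives about 1 in 20. SLC15A1 read 8.43 in replicate 4 of ZnO-exposed Transwell cultures, below the other 3. SLC6A20 read 6.997 in replicate 4 of TiO2-exposed chips, below the other 3. SLC1A1 read 7.99 in replicate 2 of ZnO-exposed Transwell cultures, below the other 3. SLC7A5 read 10.30 in replicate 1 of Transwell cultures in ZnO-control medium, above the other 3, and SLC3A2 read 10.47 in replicate 3 of ZnO-exposed chips, above the other 3.

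The difference between the control media was unlike in chip and Transwell for SLC15A1, at -1.12 ± 0.29 by the interaction term in limma.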

How the results depend on the processing

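Over 140 results (10 members in 14 comparisons), 35 were called, and of 684 alternatives to these 642 kept the call, 42 lost it and 0 reversed it. Of 2102 alternatives to the uncalled results 32 gained a call. The calls lost belonged to SLC15A1 over both control media (0.39, which was 0.35 with adjusted p = 0.0601 after median centring), SLC15A1 between media and systems, SLC1A1 between media on Transwell, and SLC6A19 after TiO2. Over the settings other than leaving out 1 array, 7 to 8 members passed over both control media, 8 in TiO2-control medium, 6 to 8 in ZnO-control medium, 5 to 8 after TiO2 and 5 to 6 after ZnO. Counts that moved by over 1.5 times, or from 0, were these. Between control media in the chip 0 became 1 with array weights (0 to 2 leaving out 1 array). It became 2 without both arrays numbered 4, where 1.73% of all genes passed. For the medium difference between systems 1 became 2 with array weights or without both arrays numbered 4 (3.99% of all genes in the latter). It became 0 with all rows or with only the groups compared (0 to 2 leaving out 1 array). Between control media on Transwell 1 became 0 with all rows and 2 with only the groups compared. It became 3 with Transwell arrays alone, where 13.3% of all genes passed. With each of its 8 arrays left out in turn it was 0. For TiO2 in the chip 0 became 1 without both arrays numbered 4, where 0.326% of all genes passed. Shares over all genes under the other settings are not given here. Leaving out 1 array gave 7 to 8 members over both control media, 8 in TiO2-control medium, 6 to 7 in ZnO-control medium, 5 to 7 after TiO2 and 5 to 6 after ZnO, and 0 for each exposure response.

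Replicate numbers did not pair the arrays: deviations of same-numbered arrays correlated between -0.126 and 0.0764. With the replicate block 2 of 140 results changed, both after TiO2: SLC6A19 (0.53, limma adjusted p = 0.0552) lost its call and SLC1A1 (-0.58, limma adjusted p = 0.0422) gained one. The cause of these changes was not tested.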
